A study of Mus musculus with 10 samples.

Results

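Resident lung mesenchyme genes are genes that mark, or act in, the fibroblasts and other connective tissue cells of the lung wall. The 10 genes described here (Tcf21, Tbx4, Tbx5, Fgf10, Wnt2, Pdgfra, Itga8, Npnt, Inmt and Ces1d) were chosen by gene symbol. All 10 were found among the 24421 genes of the count table, and 9 passed the filter on low counts that left 13203 genes for testing. Wnt2 did not pass it. The tissue came from wild-type NIH Swiss mice. The SCC group (n = 5 libraries) was squamous cell carcinoma of the lung in mice given NTCU, a nitrosourea carcinogen applied to the skin in this type of model. The normal group (n = 5 libraries) was normal lung of mice with no treatment. Regions were laser-captured from fixed tissue in paraffin, and total RNA was sequenced with a stranded kit for very small inputs. The labels tie no library to an animal and state no age. All p-values rest on library-to-library spread, part of which may be technical, and they are too small if captured regions share an animal.

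In the lung, mesenchyme and epithelium instruct each other. In the mouse embryo the T-box factors Tbx4 and Tbx5 act in the mesenchyme upstream of the signals Fgf10 and Wnt2, which act on the epithelium. In the adult mouse lung, Tcf21 and Pdgfra mark fibroblasts of the alveolar wall, among them cells that store lipid. The integrin chain Itga8 pairs with Itgb1 to form a receptor for nephronectin, the matrix protein encoded by Npnt. Inmt and Ces1d encode enzymes that are abundant in lung fibroblasts of the mouse.

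Total counts ran from 1004105 to 3691806 in SCC libraries and from 1457641 to 6817106 in normal libraries. Levels are given as CPM, counts scaled to a common library total (1e6) after TMM factors, which equalise libraries on the bulk of their genes. Squamous and basal cell markers (10 genes, Trp63 and Krt5 among them) summed to 989 to 6232 CPM in SCC libraries and to 13.2 to 40.9 CPM in normal libraries. SCC 1, SCC 3 and SCC 4 stood apart from SCC 2 and SCC 5. They carried counts on olfactory and vomeronasal receptor genes, most of which lung tissue is not known to use. This signal was 3.48, 3.45 and 3.68 CPM per kb of coding length in SCC 1, SCC 3 and SCC 4. It was 0.620 and 0.431 in SCC 2 and SCC 5 and 0.0433 to 0.213 in normal libraries. Results were therefore computed also with SCC limited to SCC 2 and SCC 5, and after subtracting from each gene a background in proportion to this signal and to the gene's length. SCC 3 and SCC 4 resembled each other most. Chi-square divided by degrees of freedom was 2.93 between their counts and at least 11.5 for other pairs within a group. They differed by more than sampling noise and were kept as separate libraries. This does not show that they come from different tumours or animals, and p-values are too small if they do not.

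Of the 9 genes tested, 8 were lower in SCC and none was higher. Inmt, Tcf21 and Itga8 fell the most, to 4.01%, 9.42% and 10.3% of their normal mean CPM. Npnt and Pdgfra fell to 17.7% and 19.8%, and Fgf10, Tbx4 and Tbx5 to 25.03%, 31.7% and 36.6%. Ces1d did not pass the test. Among all tested genes 8.68% were called lower (edgeR's quasi-likelihood test at an adjusted p under 0.05, adjusted by Benjamini-Hochberg) and 12.5% higher. The median log2 fold change, SCC over normal, was -2.33 for the 9 genes and 0.07 for all tested genes. For 5 of the 9 (Tcf21, Pdgfra, Itga8, Npnt and Inmt) each SCC library lay below each normal library, which held for 6.93% of all tested genes. None lay above in each SCC library, where 8.04% of all tested genes did. When SCC was limited to SCC 2 and SCC 5, 6 genes were called lower, among 5.16% of 14305 tested genes, and Tbx4 and Fgf10 were no longer called. After subtraction by coding length 8 were lower, among 7.51% of 12190 tested genes. After subtraction by exon length 6 were, among 6.01% of 11125 tested genes. In captured tissue, fewer mesenchymal cells and less RNA per cell cannot be told apart, and this holds for each result below.

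**Figure D1:**
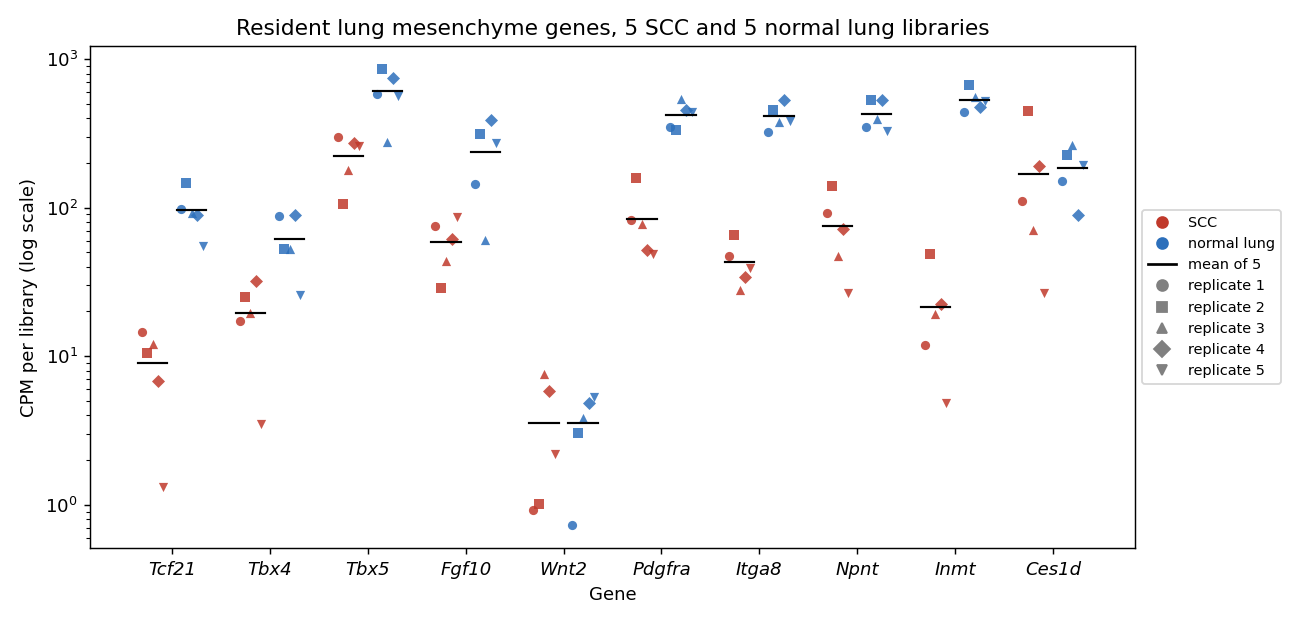
CPM of the 10 genes per library on a log axis, SCC in red to the left of normal lung in blue, with a marker shape for each replicate number (numbers do not pair libraries) and a black bar for the mean of 5. The groups do not overlap for Tcf21, Pdgfra, Itga8, Npnt and Inmt. They overlap for Tbx4, Tbx5, Fgf10, Wnt2 and Ces1d.

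Promoter sequence was looked at because most of these genes moved the same way and T-box factors are among them. RefSeq (GRCm38.p6, the assembly of mm10) gave the 250 bases before a start for 8 of the 10 genes, as 9 windows, since Npnt has 2 starts. The T-box core AGGTGT, read on both strands (ACACCT on the other), was present in 2 of these 9 windows, those of Inmt and Pdgfra, and in 11.8% of 32851 windows of the same length genome-wide. The E-box CANNTG, the kind of site that Tcf21 and its relatives bind, was in 6 of the 9 and in 66.2% of all windows. In Inmt 1 of the E-boxes overlaps the T-box core. The GLI site GACCACCCA, of the hedgehog pathway, was in none of the 9 and in 0.225% of all windows. A match is a run of letters, not a binding site. Windows are shown for the gene that fell the most, a receptor, a transcription factor and a secreted signal, 5′ to 3′ on the gene's strand, with T-box cores in capitals. Each ends before the RefSeq start, or before the first base of a GENCODE exon of the gene where that comes earlier. The RefSeq start used for Fgf10 lies inside the GENCODE gene span given below, and that of Pdgfra lies upstream of its span.
Inmt, chr6:55175044-55175240 (minus strand): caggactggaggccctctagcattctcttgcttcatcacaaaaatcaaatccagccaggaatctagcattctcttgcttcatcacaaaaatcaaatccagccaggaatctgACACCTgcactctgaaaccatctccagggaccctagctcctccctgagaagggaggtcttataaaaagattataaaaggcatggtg
Pdgfra, chr5:75152001-75152250 (plus strand): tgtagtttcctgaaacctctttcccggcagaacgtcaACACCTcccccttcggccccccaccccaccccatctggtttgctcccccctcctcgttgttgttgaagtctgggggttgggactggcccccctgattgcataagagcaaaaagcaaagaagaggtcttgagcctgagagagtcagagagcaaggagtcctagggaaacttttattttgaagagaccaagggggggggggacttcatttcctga
Tcf21, chr10:22820175-22820393 (minus strand): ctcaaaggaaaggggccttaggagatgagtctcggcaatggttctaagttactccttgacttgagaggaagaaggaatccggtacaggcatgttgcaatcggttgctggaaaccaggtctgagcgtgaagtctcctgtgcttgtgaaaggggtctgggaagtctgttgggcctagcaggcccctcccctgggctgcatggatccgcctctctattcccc
Fgf10, chr13:118714449-118714698 (plus strand): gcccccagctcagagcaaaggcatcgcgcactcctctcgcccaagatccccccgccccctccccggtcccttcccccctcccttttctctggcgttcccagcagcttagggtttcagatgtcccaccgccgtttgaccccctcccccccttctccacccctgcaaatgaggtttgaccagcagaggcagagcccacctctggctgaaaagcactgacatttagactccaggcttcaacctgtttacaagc

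Tcf21 (chromosome 10, 22817281 to 22820174, GRCm38), a basic helix-loop-helix factor of lung mesenchyme, measured 14.6, 10.4, 12.0, 6.82 and 1.32 CPM in SCC 1 to SCC 5. Normal 1 to normal 5 had 97.9, 146, 92.4, 89.0 and 55.2 CPM. The groups were far apart, and SCC 5 was the lowest library. Its log2 fold change, SCC over normal, was -3.42 (SE 0.50, n = 5 each, edgeR adjusted p = 2.27e-05). The SCC values rest on 89 counts in 5 libraries, against 1359 in normal lung, and the background would amount to 11.3% of those 89 counts by coding length and 44.9% by exon length. After either subtraction Tcf21 was still called lower.

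Tbx4 (chromosome 11, 85886422 to 85916097) had 17.4, 24.9, 19.7, 32.1 and 3.51 CPM in SCC 1 to SCC 5, against 87.8, 52.6, 52.8, 89.4 and 25.7 CPM in normal 1 to normal 5. In 4 of 5 SCC libraries it lay below every normal library, and SCC 4 lay above normal 5. Its log2 fold change was -1.67 (SE 0.51, edgeR adjusted p = 0.0185). The call did not hold for SCC 2 and SCC 5 alone (-2.11, edgeR adjusted p = 0.0624), after subtraction by exon length (-1.84, edgeR adjusted p = 0.11), or with the receptor signal as covariate (-2.20, edgeR adjusted p = 0.244), at fold changes no smaller than with all libraries.

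Tbx5 (chromosome 5, 119832668 to 119885219), the paralog of Tbx4 and also a factor of the heart, was the most abundant of the transcription factors. It had 298, 107, 179, 271 and 258 CPM in SCC 1 to SCC 5. Normal 1 to normal 5 had 587, 862, 276, 743 and 567 CPM. SCC 1 overlapped with normal 3, the lowest normal library. On the log2 scale the change was -1.45 (SE 0.41, edgeR adjusted p = 0.0115), and it was -0.94 after subtraction by exon length, where the call was lost (edgeR adjusted p = 0.147). Heart muscle markers, which lung can hold in the walls of its veins, moved with it. Of 9 such genes 7 were tested and all 7 were lower (3 of 8 when SCC was limited to SCC 2 and SCC 5). Among all tested genes 8.68% were lower, and 5.16% in that limited fit. The summed level of the 9 heart genes was 63.9 to 317 CPM in SCC and 729 to 1388 CPM in normal lung. None of the 9 was at 0 in either group as a whole. SCC 2 was the lowest SCC library for Tbx5 and for the heart list (63.9 CPM), but normal 3, the lowest normal library for Tbx5, was not the lowest for the list (948 CPM). Their part in the result was not tested.

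Fgf10 (chromosome 13, 118669791 to 118792115), the growth factor through which mesenchyme drives epithelial growth, had 75.0, 28.8, 43.7, 61.4 and 86.4 CPM in SCC 1 to SCC 5. It had 145, 312, 60.3, 391 and 271 CPM in normal 1 to normal 5. Normal 3 lay within the range of SCC, and 3 of 5 SCC libraries lay above it. The change was -2.0 on the log2 scale (SE 0.45, edgeR adjusted p = 0.00192). With SCC 2 and SCC 5 alone it was -2.07 (edgeR adjusted p = 0.0613). The libraries lowest for Fgf10 and Tbx5 were SCC 2 and normal 3 in their groups, which were also the most deeply sequenced of their groups, with 3691806 and 6817106 counts. The part of depth in these values was not tested.

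Wnt2 (chromosome 6, 17988940 to 18030585), a ligand that specifies lung together with Wnt2b in the mouse embryo, was barely counted. It had 1, 4, 14, 6 and 5 counts in SCC 1 to SCC 5 and 2, 4, 26, 11 and 7 counts in normal 1 to normal 5. These are 0.915 to 7.65 CPM in SCC and 0.726 to 5.30 CPM in normal lung, and the groups overlapped. A fit without the filter on low counts gave a log2 fold change of -0.50 (SE 1.13, edgeR adjusted p = 0.752). No difference was detectable at this depth. The background would amount to 61.2% of its 30 SCC counts by coding length and 128% by exon length. Wnt2b, its relative, had 12.0 ± 8.55 CPM in SCC and 5.07 ± 3.42 CPM in normal lung (SD, n = 5 each, edgeR adjusted p = 0.324).

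Pdgfra (chromosome 5, 75152292 to 75198215), the receptor for PDGF-A, had 83.3, 159, 77.5, 51.6 and 48.7 CPM in SCC 1 to SCC 5. Normal 1 to normal 5 had 350, 335, 536, 453 and 442 CPM. The highest SCC library, SCC 2, had less than the lowest normal library. Pdgfra changed by -2.33 on the log2 scale (SE 0.40, edgeR adjusted p = 0.000135). With the receptor signal as a covariate it was -1.68 and the call was lost (edgeR adjusted p = 0.102).

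Itga8 (chromosome 2, 12106632 to 12301922) had 47.6, 65.4, 27.9, 34.1 and 39.5 CPM in SCC 1 to SCC 5. It had 325, 453, 379, 535 and 386 CPM in normal 1 to normal 5. Each SCC library was far below each normal library, with a log2 fold change of -3.27 (SE 0.39, edgeR adjusted p = 1.4e-06). The background would amount to 11.3% of its 485 SCC counts by coding length and 25.8% by exon length. By exon length that is 46.2 of 51 counts in SCC 3 and 27.2 of 35 in SCC 4. Itga8 was still called lower after either subtraction. An antisense gene, E030013I19Rik, shares 372 bases with its exons and had at most 32 counts in any library. Antisense genes also share 123 exon bases with Fgf10 and 456 with Pdgfra, and reads there cannot be assigned where strand was not used.

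Npnt (chromosome 3, 132881745 to 132950291), the ligand of that integrin, had 91.5, 140, 47.5, 72.1 and 26.7 CPM in SCC 1 to SCC 5. Normal libraries had 349, 535, 394, 530 and 328 CPM. Ligand and receptor chain were both highest in SCC 2 among SCC libraries. The log2 fold change of Npnt was -2.49 (SE 0.43, edgeR adjusted p = 0.00013).

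Inmt (chromosome 6, 55170626 to 55175043), a methyltransferase that acts on tryptamine and related amines, fell furthest. It had 11.9, 48.9, 19.1, 22.4 and 4.82 CPM in SCC 1 to SCC 5 and 444, 667, 560, 477 and 525 CPM in normal 1 to normal 5. Its normal libraries were close together, and the highest SCC library was far below them. It changed by -4.61 on the log2 scale (SE 0.51, edgeR adjusted p = 5.68e-07), and it ran from -5.25 without SCC 2 to -4.37 without SCC 5.

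Ces1d (chromosome 8, 93166068 to 93197838), a carboxylesterase that cleaves stored fat and drug esters, was the exception among the abundant genes. It had 112, 449, 70.4, 192 and 26.7 CPM in SCC 1 to SCC 5. Normal 1 to normal 5 had 151, 227, 265, 89.4 and 195 CPM. SCC 2 was above every normal library, SCC 3 and SCC 5 were below every one, and the other SCC libraries lay among them. Its log2 fold change was -0.12 (SE 0.51, edgeR adjusted p = 0.897). Without SCC 2 it was -0.93, still not called, with an edgeR adjusted p of 0.158. Ces1d belongs to a cluster of related esterases, so its counts are uncertain where reads fit several of them. The neighbours Ces1e, Ces1f and Ces1g stood at 9.85, 8.02 and 8.12 CPM in SCC and 3.04, 6.38 and 4.50 CPM in normal lung on average. Fat cells also use Ces1d. Of 7 fat cell markers 1 was tested and not called. Their sum was 37.5, 46.4 and 65.3 CPM in SCC 1, SCC 3 and SCC 4, the libraries with the receptor signal. It was 10.4 and 7.45 CPM in SCC 2 and SCC 5, and 5.80 to 29.0 CPM over normal lung. The part of fat cells in the Ces1d values, and of the receptor signal in these sums, was not tested. Retn was at 0 in normal lung.

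**Figure D2:**
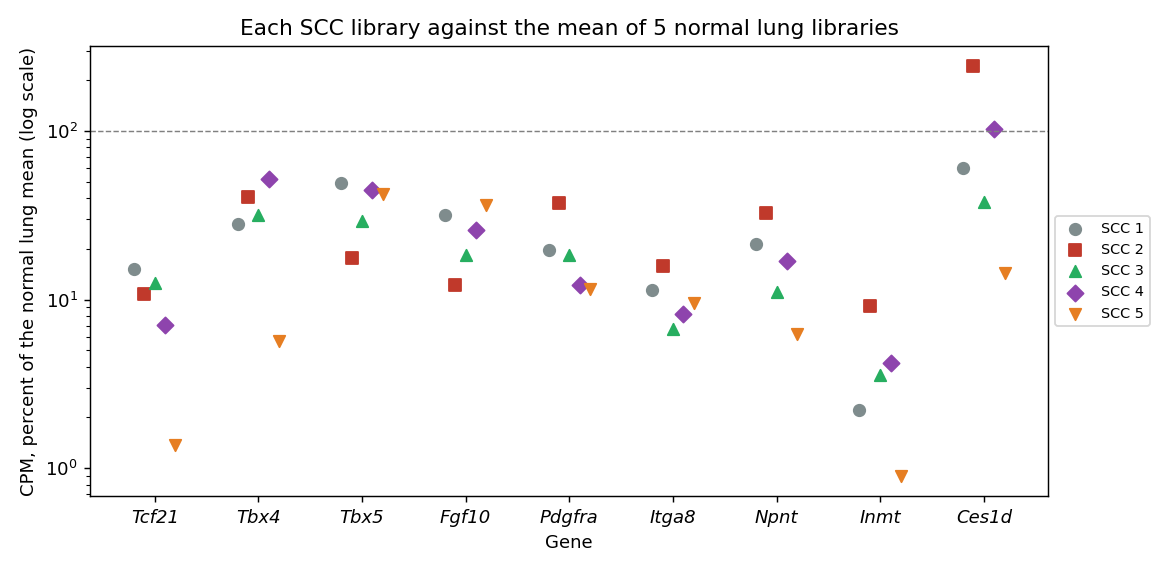
CPM of 9 genes in each SCC library as a percentage of the mean of 5 normal libraries, on a log axis with a dashed line at 100. Only Ces1d reaches the line, in SCC 2 and SCC 4. SCC 5 is the lowest library for Tcf21, Tbx4, Pdgfra, Npnt, Inmt and Ces1d and the highest for Fgf10. Wnt2 is not drawn.

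The SCC libraries did not order the genes alike. SCC 5 was the lowest SCC library for 6 of the 10 genes and the highest for Fgf10. SCC 2 was the highest for 5 genes (Pdgfra, Itga8, Npnt, Inmt and Ces1d) and the lowest for Tbx5 and Fgf10. The median log2 ratio to the normal mean over the 10 genes, with 1 CPM added to both, was -1.99, -2.05, -2.42, -2.24 and -3.23 in SCC 1 to SCC 5, against -0.28 to 0.30 in normal libraries. Of the 10 genes 6, 8, 9, 6 and 8 lay below the lowest normal library in SCC 1 to SCC 5, never Wnt2. Of all tested genes 28.8%, 20.8%, 25.4%, 26.8% and 24.7% did. Among normal libraries, normal 3 was the lowest for Fgf10 and Tbx5, and normal 5 for Tcf21, Tbx4 and Npnt.

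Levels of different genes were compared per kb of exon length. In SCC the order was Ces1d at 71.7 ± 70.7 and Tbx5 at 47.6 ± 16.8 CPM per kb (SD, n = 5 for all of these), then Npnt at 15.04 ± 8.68, Inmt at 13.4 ± 10.5 and Fgf10 at 12.8 ± 5.05. Pdgfra at 8.38 ± 4.44, Itga8 at 5.82 ± 1.97, Tbx4 at 5.74 ± 3.12, Tcf21 at 3.85 ± 2.199 and Wnt2 at 1.56 ± 1.35 CPM per kb followed. In normal lung Inmt led with 334 ± 54.0 CPM per kb, ahead of Tbx5 at 130 ± 47.2, Npnt at 84.98 ± 19.8 and Ces1d at 78.3 ± 28.7. Itga8 at 56.4 ± 10.9, Fgf10 at 51.3 ± 28.8, Pdgfra at 42.2 ± 8.19 and Tcf21 at 40.9 ± 13.8 came next, then Tbx4 at 18.1 ± 7.93 and Wnt2 at 1.57 ± 0.80 CPM per kb. In SCC the neighbours whose means each lay within the other's SD were Npnt and Inmt, Inmt and Fgf10, Itga8 and Tbx4, and Tbx4 and Tcf21. In normal lung they were Npnt and Ces1d, Itga8 and Fgf10, and Pdgfra and Tcf21. The first place of Ces1d in SCC rests on SCC 2, with 189 CPM per kb. The other SCC libraries had 11.3 to 81.0 CPM per kb of Ces1d, and Tbx5 ran from 22.8 to 63.8 CPM per kb over SCC.

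**Figure D3:**
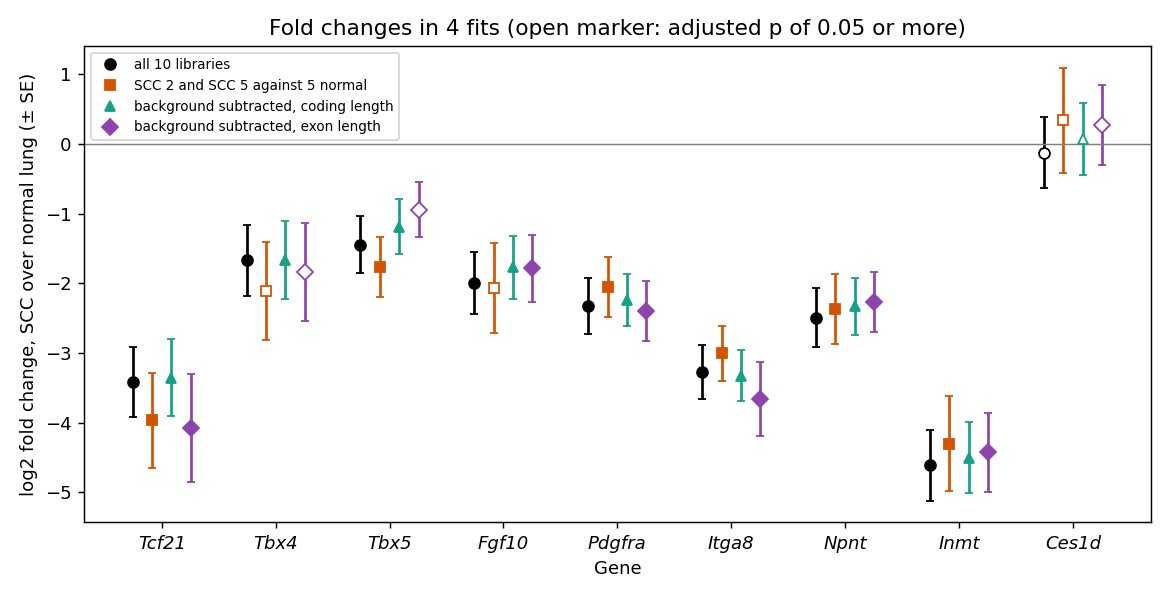
Log2 fold change (SCC over normal lung, bars of 1 SE) of the 9 tested genes in 4 fits, with open markers where the adjusted p was 0.05 or more. Tcf21, Pdgfra, Itga8, Npnt and Inmt are called lower in each of the 4, Tbx5 loses its call after subtraction by exon length, Fgf10 with SCC 2 and SCC 5 alone, and Tbx4 in both of these. Ces1d is called in none, and Wnt2 is not drawn.

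The fall was set beside that of general connective tissue genes in the same libraries. The fibrillar collagen genes Col1a1, Col1a2 and Col3a1 did not pass the test, with log2 fold changes of 0.12 (SE 0.46), -0.88 (SE 0.42) and -0.64 (SE 0.43) and edgeR adjusted p of 0.891, 0.153 and 0.328. Their summed level was 177 to 1097 CPM in SCC, highest in SCC 5, and 391.8 to 744 CPM in normal lung. The 10 mesenchyme genes summed to 338, 255, 192, 423 and 45.4 CPM per 100 CPM of these collagens in SCC 1 to SCC 5. Normal 1 to normal 5 had 648, 628, 352, 564 and 412. SCC 4 lay above normal 3 and normal 5, so the groups overlapped in this ratio. Gene by gene the ratio did not overlap for Inmt (0.44 to 12.6 per 100 in SCC, 75.3 to 117 in normal lung) or Itga8 (3.60 to 21.4 in SCC, 50.9 to 88.6 in normal lung). Nor did it overlap for Pdgfra (4.44 to 39.1 in SCC, 58.6 to 89.4 in normal lung), Npnt (2.44 to 41.2 in SCC, 48.2 to 93.5 in normal lung) or Tcf21 (0.12 to 6.58 in SCC, 8.13 to 25.4 in normal lung). It overlapped for Tbx4, Tbx5, Fgf10, Wnt2 and Ces1d. For Ces1d it was higher on average in SCC, at 59.7 ± 48.5 per 100, than in normal lung, at 31.5 ± 10.3 (SD, n = 5 each, not tested). The genes without overlap in this ratio also had none in plain CPM. The share of all tested genes without overlap in it was not computed. Against 13 general fibroblast genes, these collagens and 5 genes called lower among them, the sum of the 10 overlapped. It was 22.0 to 110 per 100 in SCC and 84.7 to 147 in normal lung.

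**Figure D4:**
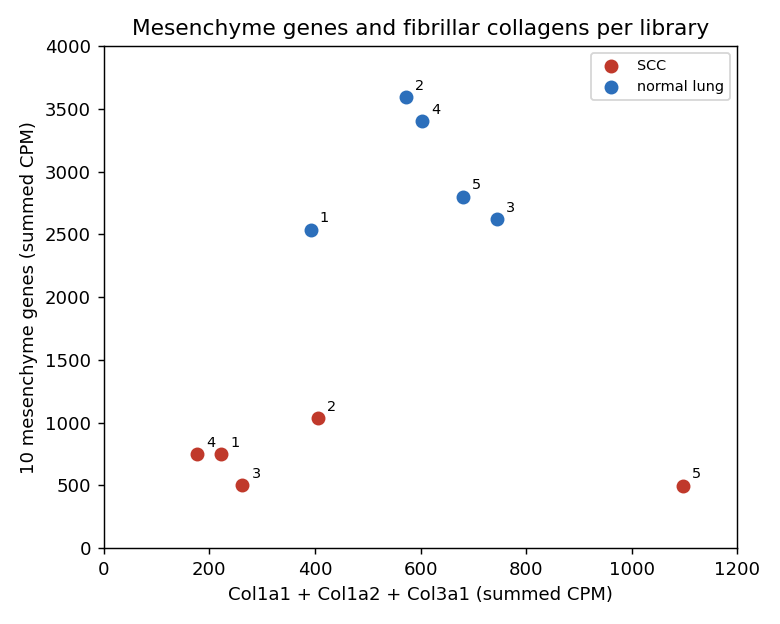
Summed CPM of the 10 mesenchyme genes against the summed CPM of Col1a1, Col1a2 and Col3a1, SCC in red and normal lung in blue, each point a library with its replicate number. SCC libraries lie between 498 and 1034 CPM on the vertical axis and normal libraries between 2538 and 3593, while SCC 5 has the most collagen of all 10.

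Other fibroblast genes, from lists chosen with earlier results of these data known, varied by class. Of 17 alveolar fibroblast genes 12 were lower and 0 higher, with a median log2 fold change of -1.89, against 0.07 for all tested genes. The shares over all tested genes, for this and the next 2 lists, were 8.68% lower and 12.5% higher. When SCC was limited to SCC 2 and SCC 5, 10 of the 17 were lower. Limch1, an actin-binding protein, had 103 ± 46.1 CPM in SCC and 1265 ± 107 CPM in normal lung (SD, n = 5 each), a log2 fold change of -3.62. Mfap4, of elastic microfibrils, had 43.3 ± 25.3 CPM in SCC and 511 ± 126 CPM in normal lung, at -3.55. Of 10 adventitial fibroblast genes, which mark the sheath of vessels and airways, 3 were lower and 0 higher (median -1.27). With SCC 2 and SCC 5 alone 2 were lower and 1 higher. Among those lower with all libraries were Clec3b at -2.67 and Dpt at -2.27. Both lost their calls after subtraction by exon length (edgeR adjusted p = 0.0758 and 0.0627). Of 13 general fibroblast genes 5 were lower and 0 higher (median -0.64, and 3 lower when SCC was limited to SCC 2 and SCC 5), with Vim, an intermediate filament, at -1.77 and Col6a3, a collagen VI chain, at -1.58.

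Genes often raised in tumour fibroblasts went both ways. Of 13, 10 were tested, 2 were higher and 3 lower (median -0.48). Among all tested genes 12.5% were higher and 8.68% lower, and each list of this paragraph is to be read beside these shares. After subtraction by coding length 1 was higher and 2 lower. By exon length 0 were higher and 1 lower (median -1.04). The contractile genes Acta2 and Tagln were at -2.29 and -2.41 (Tagln not called after subtraction by exon length, edgeR adjusted p = 0.0662), and the secreted proteins Thbs2 and Inhba at 3.25 and 2.57. Neither Thbs2 nor Inhba was called in SCC 2 and SCC 5 alone (edgeR adjusted p = 0.0776 and 0.0952), nor was Dpt (edgeR adjusted p = 0.0997). Inhba no longer passed the filter after either subtraction, nor did Thbs2 after that by exon length. Fap, Lrrc15 and Cthrc1 did not pass the filter on low counts and were not tested. Lrrc15 had 38.4, 36.6 and 45.8 CPM in SCC 1, SCC 3 and SCC 4, the libraries with the receptor signal, and 5.09 and 1.75 CPM in SCC 2 and SCC 5, against 0 to 2.29 CPM in normal lung. Fap had 0.438 to 6.55 CPM in SCC and 0 to 0.877 CPM in normal lung, and Cthrc1 had 0 to 9.74 CPM in SCC and 0 to 8.32 CPM in normal lung. The part of the receptor signal in these values was not tested. Of 10 smooth muscle and pericyte genes 5 were lower and 0 higher (median -1.43), with Myh11 at -2.52. Acta2 and Tagln are in both lists. Of 12 further mesenchymal transcription factors 9 were tested, 4 were lower and 0 higher (median -1.32). Prrx2, Twist1 and Twist2 did not pass the filter on low counts. Their means were 3.57, 6.01 and 6.72 CPM in SCC and 0.0594, 0.190 and 0.975 CPM in normal lung. The SCC values rest on 28, 51 and 57 counts in all. They ran from 1.75 to 9.74, 0.915 to 12.7 and 0 to 10.7 CPM over SCC libraries. Normal libraries had at most 0.297, 0.438 and 2.63 CPM. The part of the receptor signal in these 3 genes was not tested. Foxf1, a forkhead factor of lung mesenchyme, stood at 22.7 ± 13.9 CPM in SCC and 172 ± 17.2 CPM in normal lung, and the T-box gene Tbx3 at 33.2 ± 23.3 CPM in SCC and 146 ± 37.4 CPM in normal lung (SD, n = 5 each).

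**Figure D5:**
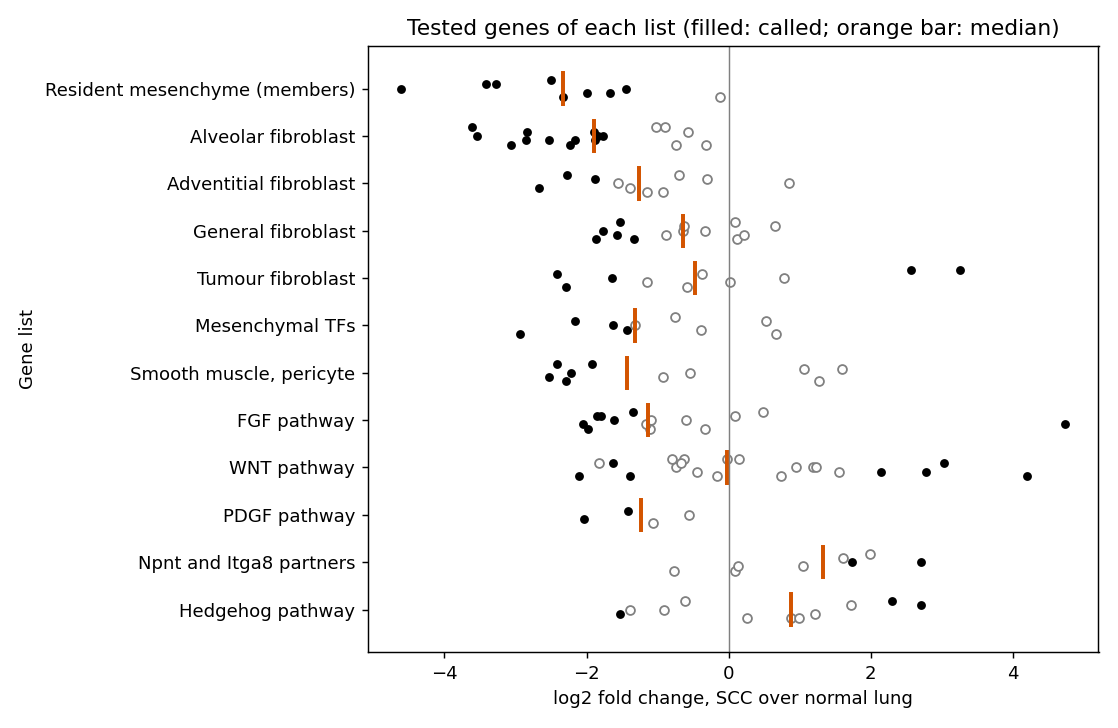
Log2 fold change (SCC over normal lung) of the tested genes of each list, filled where called and open where not, with an orange bar at the median. Among the 12 lists drawn, the medians of the mesenchyme genes (-2.33) and alveolar fibroblast genes (-1.89) lie furthest to the left, and those of the Npnt and Itga8 partners (1.33) and the hedgehog pathway (0.88) lie right of 0.

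Pathway genes around the signals and receptors are given beside the shares over all tested genes, 12.5% higher and 8.68% lower. Of 15 further FGF pathway genes 14 were tested, 6 were lower and 1 higher (median -1.14). When SCC was limited to SCC 2 and SCC 5, 4 were lower and 0 higher, and after subtraction by exon length 2 were lower and 1 higher. Fgfr2, the receptor gene for Fgf10, had 63.8 ± 34.5 CPM in SCC and 224 ± 26.8 CPM in normal lung, a log2 fold change of -1.80 (SE 0.39, edgeR adjusted p = 0.0015). Spry1, a feedback inhibitor, fell by 2.05 on the log2 scale. Etv4, a transcription factor induced by FGF signals, rose by 4.74 (SE 0.91), with 23.9 ± 10.6 CPM in SCC and 0.636 ± 0.995 CPM in normal lung. It was not called in SCC 2 and SCC 5 alone (3.94, edgeR adjusted p = 0.052). Of 23 further Wnt genes 21 were tested, 4 were higher and 3 lower (median -0.03, but 0.05 with DESeq2 size factors and -0.78 after subtraction by exon length). The ligands Wnt4 and Wnt7b, which epithelia make, rose by 3.04 and 4.20 on the log2 scale. Of 5 further PDGF genes 4 were tested and 2 were lower (median -1.24), the ligand Pdgfb at -2.03 and the receptor Pdgfrb at -1.41. Pdgfc did not pass the filter on low counts. It had 22.9 ± 15.3 CPM in SCC and 1.71 ± 1.92 CPM in normal lung (SD, n = 5 each). Its range was 3.51 to 42.1 CPM in SCC and 0 to 4.54 CPM in normal lung, so the groups overlapped. The part of the receptor signal in the Pdgfc values was not tested. Pdgfrb was not called in SCC 2 and SCC 5 alone (-1.07, edgeR adjusted p = 0.085).

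Of 9 partner genes of nephronectin and its integrin 8 were tested, 2 were higher and 0 lower (median 1.33), where 12.5% of all tested genes were higher and 8.68% lower. With SCC 2 and SCC 5 alone, and after subtraction by coding or exon length, 1 was higher and the median was 0.68, 0.70 and 0.45. Itgb1, which pairs with Itga8, had 321 ± 364 CPM in SCC and 550 ± 147 CPM in normal lung (SD, n = 5 each, edgeR adjusted p = 0.342). Fibronectin (Fn1), another ligand of this integrin, had 728 ± 396 CPM in SCC and 685 ± 182 CPM in normal lung (edgeR adjusted p = 0.91). Tnc, the matrix protein tenascin C, rose by 2.71, and Frem1 by 1.73. Frem1 was not called with SCC 2 and SCC 5 alone (0.89, edgeR adjusted p = 0.574) or after subtraction by exon length, where its sign turned (-0.04, edgeR adjusted p = 0.988). The subtraction by coding length also ended the call (1.40, edgeR adjusted p = 0.131). Of 11 hedgehog pathway genes, through which epithelium signals to mesenchyme, 2 were higher and 1 lower (median 0.88). That median became 0.45 when SCC was limited to SCC 2 and SCC 5, 0.35 after subtraction by coding length and 0.03 by exon length, and the last left none called higher. Gli1 rose by 2.71 with all libraries and was not called in SCC 2 and SCC 5 alone (0.58, edgeR adjusted p = 0.818) or after subtraction by exon length (2.99, edgeR adjusted p = 0.0606), and the inhibitor Hhip fell by 1.53.

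Markers of neighbouring cell types moved in the same libraries. Their counts stand beside 8.68% lower and 12.5% higher among all tested genes. Of 12 endothelial genes 11 were lower and 0 higher (median -3.48), with a sum of 467 to 884 CPM in SCC and 6675 to 8543 CPM in normal lung. Tmem100 was at -4.96 and Tie1 at -3.77. Of 10 alveolar type 2 genes all 10 were lower (median -3.65, sum 818 to 1221 CPM in SCC and 9508 to 12363 CPM in normal lung), Slc34a2 at -4.20 and Sftpc at -4.59. Of 10 alveolar type 1 genes 9 were lower and 1, Aqp5, was higher at 2.21. Their median was -2.94, with Ager at -3.89, Cldn18 at -3.57 and a sum of 768 to 2406 CPM in SCC and 5857 to 8042 CPM in normal lung. Of 8 genes of mesothelium, the lining of the lung surface, 7 were tested, 4 were higher and 1 lower (median 2.27). Upk1b was at 6.11, Msln at 4.59 and Gpm6a at -2.63. The sum of this list was 317 to 1162 CPM in SCC and 152 to 191 CPM in normal lung. Its highest means in SCC were those of Krt19, Msln and Upk1b, at 206, 186 and 152 CPM. Upk3b (-1.74) and Lrrn4 (1.34) were not called, and Wt1 was not tested. Whether these counts come from mesothelium was not tested. Squamous and basal markers were higher for 10 of 10 (median 8.69), 3 of them (Krt6a, Dsg3 and Krt13) with no count in normal lung. No other list had a gene at 0 in all libraries of a group, apart from Retn. The heart genes Actc1 and Myh6 were at -4.04 and -3.04. The part of cell composition in the results above was not tested.

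The genes outside the set whose log2 CPM over the 10 libraries was most like the mean of the 9 tested mesenchyme genes were Vwf, Kit, Akap5, Plvap and Efnb2. Their Pearson correlations with that mean, each gene scaled to unit SD, were 0.996, 0.988, 0.985, 0.984 and 0.982. The points share the split between the groups, and no test was made. Vwf, a clotting protein of endothelium, had 92.8 ± 26.5 CPM in SCC and 491 ± 90.9 CPM in normal lung (SD, n = 5 each), and Kit, a receptor kinase, had 26.7 ± 10.8 CPM in SCC and 204 ± 56.3 CPM in normal lung.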

How the data were processed

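Read counts per gene symbol were deposited for 10 libraries as whole numbers, that the authors had not normalized. The submitters' processing notes name HTSeq 0.6.1, TopHat2 2.0.1, cutadapt 1.9.1, DESeq2 and the mm10 build, without their order. No source used here states the annotation, strand setting or handling of multiply mapping reads, so counts of near-identical, overlapping or antisense genes are uncertain.

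The test used edgeR 4.0.16 (R 4.3.3): filterByExpr by group, TMM factors and the robust quasi-likelihood test, SCC over normal, without covariates. Calls used p-values adjusted over all tested genes (Benjamini-Hochberg, threshold 0.05). SE is the size of the log2 fold change divided by the square root of F. The fit was checked on simulated counts. Coordinates, exon lengths (union of all annotated exons) and coding lengths came from GENCODE M21 (GRCm38), which matched 24045 of 24421 symbols.

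The receptor signal is the mean count per kb of coding length over 1423 olfactory and vomeronasal receptor genes, with values above the 98th percentile of a library set to it. The subtraction removed this signal times coding or exon length from each gene, on the untested assumption that the signal is background. The exon version was added after seeing the data.

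The members, gene lists and tests were chosen with earlier results of these data known. The text names all 10 members and, from each list, the 2 called genes of smallest p and called genes against the list's median where there were at most 3. It also names the 5 genes most like the members. Col1a1, Col1a2 and Col3a1 served as the denominator of a ratio. Fgfr2, Itgb1, Fn1, Wnt2b, Fap, Lrrc15, Cthrc1, Retn and Dsg3 were named outside that rule, after their values were seen. So were Prrx2, Twist1, Twist2, Pdgfc, Krt19, Upk3b, Lrrn4, Wt1 and the esterases. Alternatives were DESeq2 1.42.0 (size factors or the Wald test), limma 3.58.1 voom with quality weights, no filter, the receptor signal as covariate, and leaving out each library.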

Additional observations from a re-analysis of the deposited data

Results flagged for a closer look

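Within groups of 5, 94 groups of values (47 genes in SCC and in normal lung) were examined for a library far from the others, by Dixon's criterion on log2 CPM. Chance alone flags about 1 in 20, and 3 were found, none in the 10 mesenchyme genes. Tmem100, an endothelial gene, stood at 0.877 CPM in SCC 5, where the other SCC libraries had 11.5 to 21.0 CPM. Tnc stood at 3.05 CPM in normal 2, where the other normal libraries had 15.6 to 28.1 CPM. Limch1 stood at 1454 CPM in normal 3, where the others had 1195 to 1241 CPM.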

How the results depend on the processing

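The count of 8 mesenchyme genes lower in SCC, and 0 higher, was unchanged with DESeq2 size factors, without the filter, with the DESeq2 Wald test, with limma-voom, after subtraction by coding length and without each library in turn. It was 6 with SCC 2 and SCC 5 alone, after subtraction by exon length and with the receptor signal as covariate. Each count is to be read beside the number called lower among all genes in that fit, given below. Some calls lay near the threshold. After subtraction by coding length Tbx5 and Tbx4 had an edgeR adjusted p of 0.0425 and 0.0455. With the covariate Fgf10 and Npnt had an edgeR adjusted p of 0.0461 and 0.0489. Ces1d, never called, changed sign with SCC 2 and SCC 5 alone (0.34), after subtraction by coding length (0.068) or exon length (0.27), with the covariate (0.71) and without SCC 5 (0.13). Without SCC 2 it was -0.93, the lowest of the leave-one-out values. Over all genes, 1645 were called higher and 1146 lower, of 13203 tested. These counts were 1769 and 1018 of 13203 with DESeq2 size factors and 1177 and 916 of 12190 after subtraction by coding length. They became 5470 and 2072 of 22919 without the filter, and 6378 and 1389 of 21503 with the DESeq2 Wald test. With limma-voom they were 3259 and 2766 of 13203, and with the covariate 597 and 484 of 13203. SCC 2 and SCC 5 alone gave 592 and 738 of 14305, and subtraction by exon length 671 and 669 of 11125. The cause was not tested. Without each library in turn, 1304 to 2207 genes were higher and 1009 to 1473 lower, of 13485 to 14919 tested. The median of all genes was 0.07, and 0.16 with DESeq2 size factors, -0.25 after subtraction by exon length, 0.71 without the filter and 1.11 with the DESeq2 Wald test. Against the whole general fibroblast list in place of 3 collagens, the median ratio was 86.7 per 100 in SCC and 116 in normal lung, where it was 255 and 564. No paired analysis was possible because the labels give the groups no shared replicate numbers. Depth limits the values in SCC of Wnt2 (30 counts in all) and Tcf21 (89 counts).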

Other observations

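Among relatives of Ces1d, chosen after their values were seen, 2 esterases of the Ces2 cluster were higher in SCC. Ces2f had 38.4, 41.2, 12.6, 16.6 and 42.5 CPM in SCC 1 to SCC 5 and at most 1.51 CPM in normal lung (log2 fold change 6.53, SE 1.02, edgeR adjusted p = 4.6e-05). Ces2g had 48.1 to 182 CPM in SCC and 9.36 to 46.5 CPM in normal lung (1.76, SE 0.45, edgeR adjusted p = 0.00536).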
